A study of Penicillium oxalicum with 12 samples.

Results

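PDE_08094 is the locus tag taken here as the gene of the endo-xylanase Xyn10A, also called xyn1, of the filamentous fungus Penicillium oxalicum. It was chosen by its tag and is 1 of 9979 genes in the deposited table. The table gives tags without gene names, so the name comes from the choice of the gene and was not checked against a sequence. RNA was sequenced from mycelia of 4 groups of 3 libraries, described by the submitters as biological triplicates. WT is the wild-type strain 114-2. The strain gCXC expresses CXC, a chimeric transcription factor. The strain gXlnRC expresses the regulator XlnR with the substitution A871V, and gAraRC the regulator AraR with A731V. All strains grew for 24 h with 2% glucose at 30 °C and 200 rpm and then for 4 h in the same medium without a carbon source, so the WT level is a level under carbon starvation and not under xylan or another inducer. The promoters of the engineered factors, the parts joined in CXC, the number of clones per strain and whether the native factor genes remained were not stated in the labels. The regulators' own transcripts are not named in the table, so the labels could not be checked against them.

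Endo-xylanases cut the backbone of xylan, a main polysaccharide of the plant cell wall beside cellulose, into short xylose oligomers. Fungi such as P. oxalicum secrete them together with cellulases. XlnR is a zinc cluster transcription factor known in Aspergillus as the activator of xylanase genes and of genes for the use of xylose. AraR is a related factor known there as an activator of genes for the use of arabinose. The xylanase gene is a known target of XlnR, and carbon catabolite repression keeps such genes low while glucose is present.

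The table held FPKM values, which are fragments scaled to gene length and to the library total. Read numbers could be recovered from them, because in all 9125 tested genes (those that reached 1 FPKM in 3 or more libraries) the values lay within 0.1 of whole reads at a coding length found by a search in assumed steps of 3 nt. Totals ran from 14549534 to 20092360 reads counted in genes per library. Spearman correlations across the 9125 tested genes lay between 0.9895 and 0.9969 within groups and between 0.9100 and 0.9591 between groups. A coding length of 1233 nt, or 411 codons with the stop codon, was recovered for PDE_08094.

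The xylanase transcript was low in WT and rose in all 3 engineered strains. It was highest in gXlnRC, intermediate in gCXC, lower in gAraRC and lowest in WT. The mean level was 3.503 ± 0.832 FPKM in WT, 172 ± 27.4 FPKM in gAraRC, 907 ± 72.9 FPKM in gCXC and 8355 ± 168 FPKM in gXlnRC (SD, n = 3 libraries each). No library of any group overlapped with a library of another group.

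In WT the 3 libraries had 3.06, 4.46 and 2.98 FPKM, from 63, 107 and 54 reads (replicates 1 to 3). Replicate 2 was the highest, and the 95% counting intervals of its level (3.66 to 5.39 FPKM) and of replicate 1 (2.36 to 3.92 FPKM) overlapped. These intervals cover the counting of reads only, and their overlap does not show that the replicates agree within counting error. The gene was thus detected in every WT library, but between 17.6% and 22.2% of the 9979 genes had a lower value than it.

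In gAraRC the libraries had 141, 185 and 190.3 FPKM, from 2566, 3323 and 4070 reads. Replicate 1 was the lowest, and its counting interval (135 to 146 FPKM) did not reach the others. The gene ranked between 758 and 1021 of 9979 by FPKM in these libraries.

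In gCXC the libraries had 877, 855 and 991 FPKM, from 20060, 16891 and 19720 reads. Replicate 3 was the highest. The gene ranked between 139 and 158.

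In gXlnRC the libraries had 8474, 8163 and 8429 FPKM, from 176118, 170005 and 208807 reads. The 3 values lay within a factor of 1.04 of each other, and the gene ranked 10 or 11. It took 1.03% ± 0.0210 of all reads counted in genes in gXlnRC, against 0.112% ± 0.00897 in gCXC, 0.0212% ± 0.00337 in gAraRC and 0.000432% ± 0.000103 in WT (SD, n = 3). In bulk RNA, more RNA per cell cannot be told apart from more cells that express the gene.

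**Figure D1:**
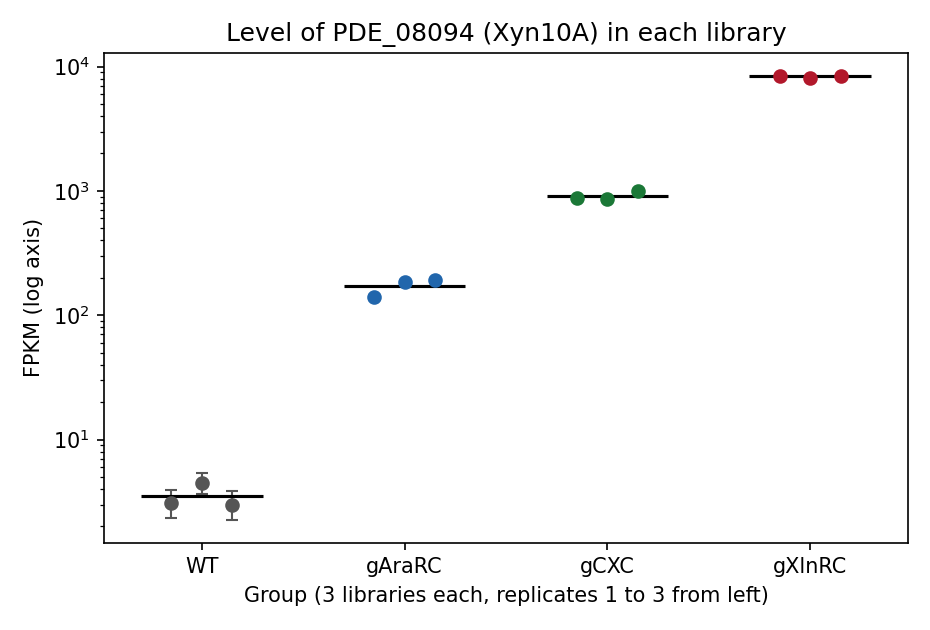
Level of PDE_08094 in each of the 12 libraries, in FPKM on a log axis; points are libraries, horizontal lines are group means and bars are 95% counting intervals, which are smaller than the points outside WT. The WT libraries lie between 2.98 and 4.46 FPKM and the gXlnRC libraries between 8163 and 8474 FPKM, with gAraRC and gCXC between them and no overlap.

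The spread between replicates differed among the groups. The coefficient of variation was 23.7% in WT, 15.9% in gAraRC, 8.03% in gCXC and 2.01% in gXlnRC. The median over other genes within a factor of 1.5 of the same mean level was 15.2% in WT (745 genes), 6.33% in gAraRC (678 genes), 3.57% in gCXC (154 genes) and 4.64% in gXlnRC (10 genes). The xylanase gene therefore varied more than most genes of its level in WT, gAraRC and gCXC, where 75.3%, 86.4% and 92.9% of them had a smaller coefficient. In gXlnRC none of the 10 did.

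An exact permutation test over all 369600 assignments of the 12 libraries to the 4 groups, on log2(FPKM + 1), gave p = 6.49e-05, the smallest value these assignments can give. Groups accounted for 99.9% of the variance on that scale. An exact permutation test of 3 against 3 libraries alone cannot go below 0.10. Each pair of groups was therefore compared with limma, fitted to all 9125 genes, with Benjamini-Hochberg adjustment over them. All 6 pairs of groups were compared. The fit shares a single spread per gene over the 4 groups, so the SE of the xylanase gene is the same in each comparison. Its own SD on the log2 scale was 0.255 in WT, 0.241 in gAraRC, 0.114 in gCXC and 0.029 in gXlnRC. By these SDs, the shared SE and its interval are too narrow for gAraRC against WT and too wide for gXlnRC against gCXC.

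Against WT, the gene was 2385-fold higher in gXlnRC by mean FPKM, and the ratio ran from 1829 to 2841 between single libraries. The log2 change of FPKM + 1 was 10.87 ± 0.13 (SE, limma adjusted p = 7.50e-15). No other tested gene changed by more in that comparison, in either direction, as deposited or under any of the 23 alternative settings. Of all tested genes, 19.1% passed the test as higher there and 3.35% were also at least 2-fold higher.

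In gCXC the gene was 259-fold higher than in WT, with ratios from 192 to 332 between libraries and a log2 change of 7.67 ± 0.13 (SE, limma adjusted p = 4.25e-13). The tested genes that rose by more were 2, PDE_07124 (9.45) and PDE_02681 (8.93), named here after their values were seen. As background, 23.8% of tested genes passed as higher and 2.04% were at least 2-fold higher.

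In gAraRC the gene was 49.1-fold higher than in WT, with ratios from 31.5 to 63.8 between libraries and a log2 change of 5.27 ± 0.13 (SE, limma adjusted p = 2.30e-11). Here 5 tested genes rose by more, from PDE_03776 (5.45) and PDE_04029 (5.51) through PDE_04024 (5.95) and PDE_09192 (6.39) to PDE_04016 (6.91), again named after their values were seen. The background was 19.1% of tested genes higher and 6.06% at least 2-fold higher. The tested genes as a whole stood lower in gAraRC than in WT, with a median log2 change of -0.34, so the change of the xylanase gene relative to that median was 5.60. The medians were -0.10 for gXlnRC and 0.00 for gCXC, and the change relative to the median in gXlnRC was 10.97.

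**Figure D2:**
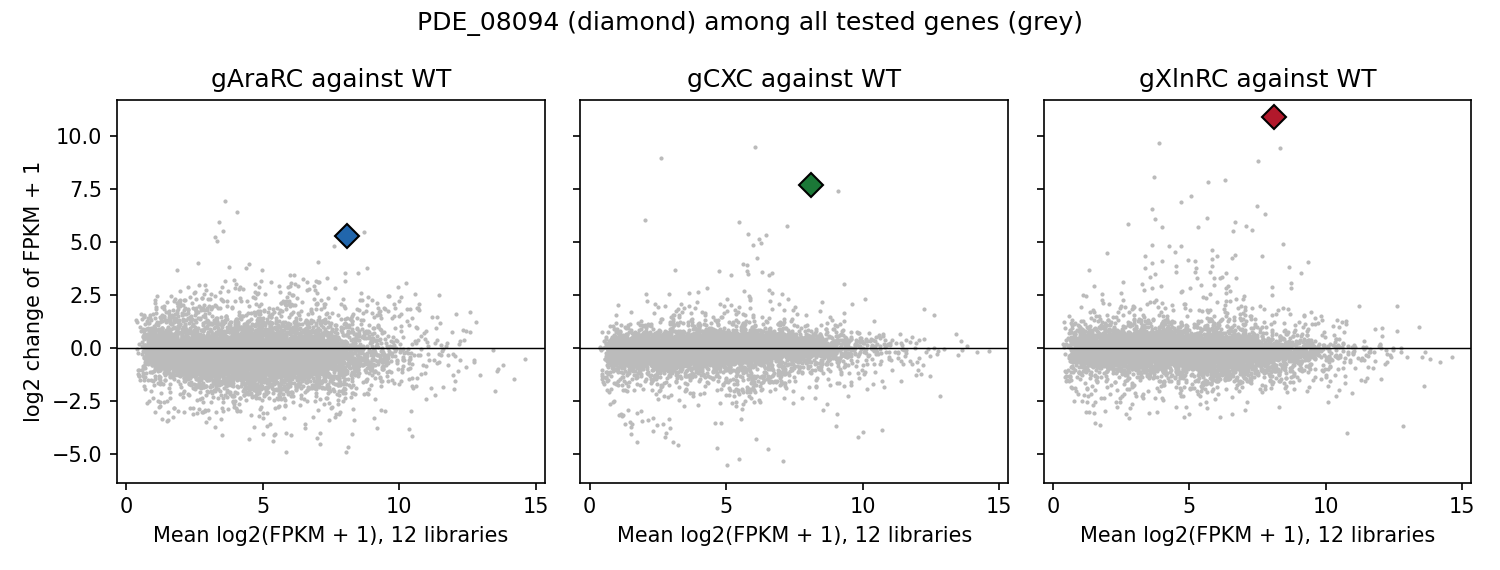
Log2 change of FPKM + 1 against WT for each tested gene (grey points) by its mean log2(FPKM + 1) over 12 libraries, with 1 panel per strain and PDE_08094 as a diamond. The diamond is the highest point in gXlnRC (10.87), the third highest in gCXC (7.67) and the sixth highest in gAraRC (5.27).

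The engineered strains also differed from each other in the xylanase level. The gCXC level was 10.9% of the gXlnRC level, and the log2 change of gXlnRC against gCXC was 3.20 ± 0.13 (SE, limma adjusted p = 1.40e-09), where 22.5% of tested genes were higher and 4.99% at least 2-fold higher. The gAraRC level was 19.0% of the gCXC level, and gCXC against gAraRC gave 2.40 ± 0.13 (adjusted p = 5.43e-09). There 53.2% of tested genes were higher in gCXC and 14% at least 2-fold higher. The gAraRC level was 2.06% of the gXlnRC level, and gXlnRC against gAraRC gave 5.61 ± 0.13 (adjusted p = 5.18e-12), beside 49.1% of tested genes higher and 11.5% at least 2-fold higher. Each neighbour in the order WT, gAraRC, gCXC, gXlnRC therefore differed by more than the spread between replicates. More genes changed by more than the xylanase gene between the engineered strains than against WT. In gXlnRC over gCXC 42 genes were raised by more and 53 changed by more in either direction. The numbers were 77 and 174 in gCXC over gAraRC, and 13 and 13 in gXlnRC over gAraRC.

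The share of higher calls among all genes depends on scaling, which bears on the background and not on the calls for the xylanase gene. In gCXC against WT 2170 genes were higher and 2422 lower as deposited, 2380 and 2278 with median-of-ratios scaling, and 2679 and 2053 with TPM scaling. As deposited, 1746 genes were higher and 3237 lower in gXlnRC against WT, and 2566 and 2401 with median-of-ratios scaling. In gAraRC against WT the numbers were 1744 and 5200, and 3109 and 3255. With TPM scaling they were 2319 and 2473 in gXlnRC against WT, and 2210 and 4290 in gAraRC against WT. For gXlnRC against gCXC the numbers were 2052 and 3297 as deposited, 2532 and 2571 with median-of-ratios scaling, and 2181 and 2961 with TPM scaling. In the same order they were 4856 and 2003, 3166 and 3284, and 4401 and 2295 for gCXC against gAraRC. For gXlnRC against gAraRC they were 4476 and 2141, 3204 and 3239, and 4111 and 2355.

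**Figure D3:**
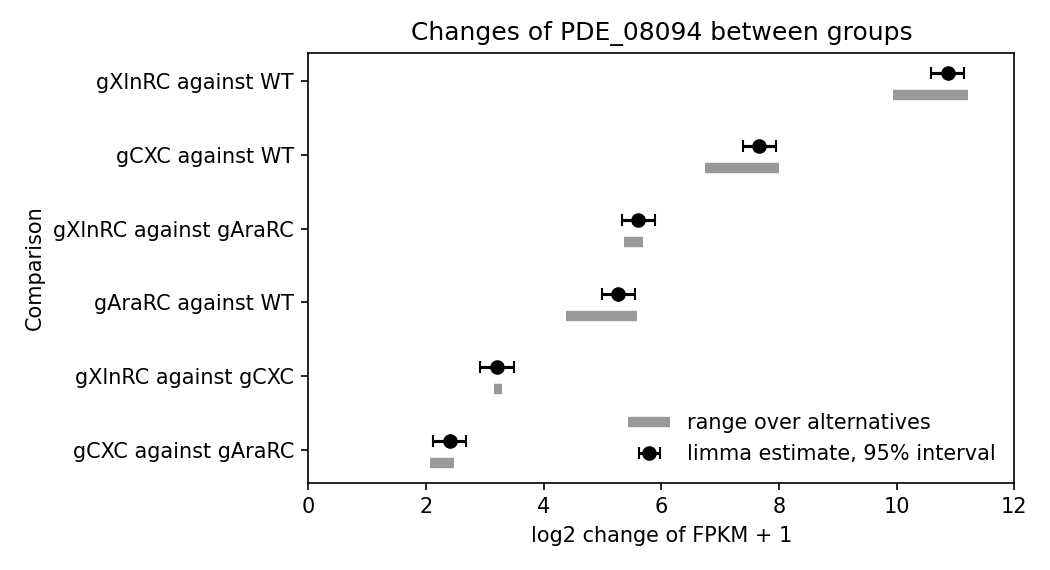
Log2 change of FPKM + 1 of PDE_08094 for the 6 pairs of groups, with the limma estimate and its 95% interval (black) and the range over the alternative settings (grey bars). Every interval and every range lies above 0, from gCXC against gAraRC (2.40) to gXlnRC against WT (10.87).

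The order of the 4 groups was taken from the xylanase gene itself, so its inclusion was fixed, and other orders were not counted. Of the 9125 tested genes, 150 had group means in the order gXlnRC, gCXC, gAraRC, WT from high to low. In 13 of these (0.142% of tested genes), the xylanase gene included, no libraries of neighbouring groups overlapped. Among these 13 genes, 2 had steps of at least 1 on the log2 scale between all neighbours: PDE_08094, whose smallest step was 2.40, and PDE_03571, whose smallest step was 1.62. The number without overlap was 25 with median-of-ratios scaling or quantile normalization and 19 with TPM scaling, and 10, 11 and 12 of the 13 genes remained under these settings, PDE_08094 among them.

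Likeness to the xylanase gene was measured over the 12 libraries by Pearson's r of log2(FPKM + 1), among 737 other genes whose group means spanned at least 2 on that scale. The libraries share their group, so r mostly compares 4 levels, and it is given as a description. The median r was 0.02, and 12 genes had an r of at least 0.9. No gene had an r of at least 0.99.

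The 4 most alike were PDE_06944 (r = 0.98), PDE_06210 (r = 0.95), PDE_00753 (r = 0.95) and PDE_03571 (r = 0.93). None of these tags is paired with a gene name here, so they are given by tag only. PDE_06944 had 5.76, 7.03 and 6.49 FPKM in WT, 22.6, 22.5 and 23.6 FPKM in gAraRC, 81.8, 82.2 and 71.4 FPKM in gCXC, and 122, 122 and 127 FPKM in gXlnRC. Its order of groups was that of the xylanase gene, without overlap, but its group means spanned 4.07 on the log2 scale against 10.87.

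PDE_00753 was already at 164 ± 11.6 FPKM in WT and stood at 296 ± 38.4 in gAraRC, 1312 ± 46.8 in gCXC and 2722 ± 116 in gXlnRC (SD, n = 3). PDE_06210 was low in every group, from 3.64 ± 1.27 FPKM in WT to 18.04 ± 1.52 in gXlnRC, and was at 15.6 ± 1.03 in gCXC. The means of both genes followed the order of the xylanase gene over a smaller span. The gXlnRC and gCXC means of PDE_06210 differed by 0.20 ± 0.15 on the log2 scale, which did not pass the test (SE, limma adjusted p = 0.269). PDE_06210 was picked by the same values, so this p is given as a description.

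A second measure, the distance between the group means relative to WT, takes the size into account. By it the nearest genes were PDE_03571 (distance 6.23 on the log2 scale) and PDE_03311 (7.43), which are far from a match. PDE_03571 had 6.85, 6.998 and 7.52 FPKM in WT, 21.9, 23.3 and 26.8 in gAraRC, 96.6, 93.7 and 99.3 in gCXC, and 1977, 1846 and 2031 in gXlnRC. PDE_03311 had 3.79 ± 0.411 FPKM in WT, close to the xylanase gene, but 14.7 ± 1.70 in gAraRC, 22.7 ± 1.13 in gCXC and 682 ± 24.4 in gXlnRC (SD, n = 3). In both, the step from gCXC to gXlnRC was larger than in the xylanase gene (4.32 and 4.85 against 3.20 on the log2 scale), and the step from WT to gAraRC smaller (1.62 and 1.71 against 5.27). These are log2 differences of group means, given without a test because the genes were picked by the same values.

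**Figure D4:**
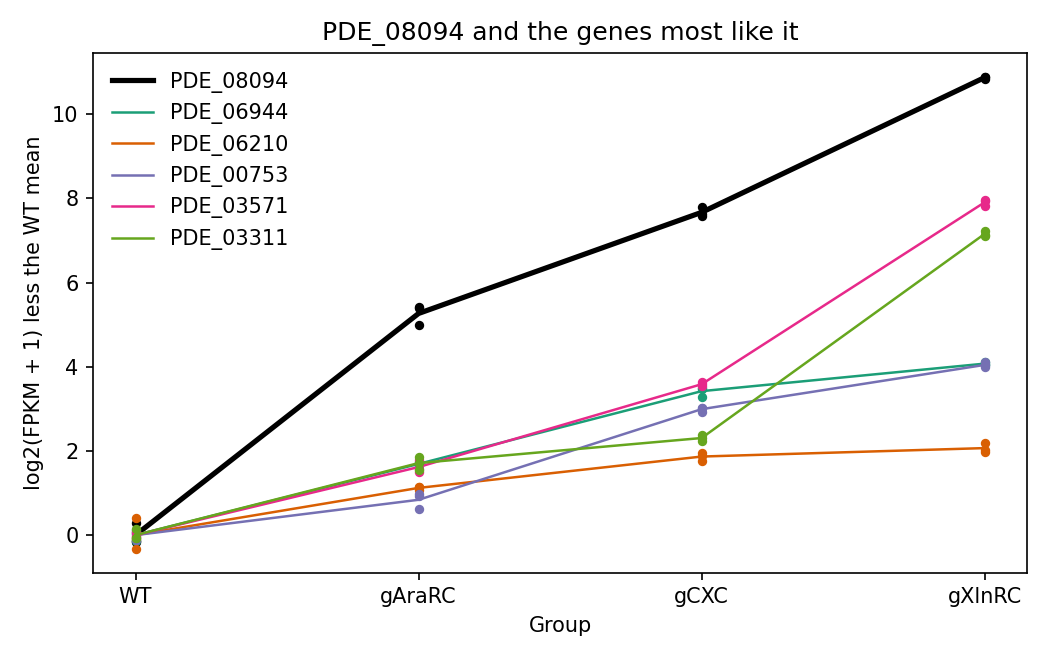
Group means (lines) and libraries (points) of log2(FPKM + 1) less the WT mean for PDE_08094 and the 5 genes most like it by correlation or distance. All 6 rise from WT to gXlnRC, and PDE_08094 lies above the others in every strain. In gAraRC it is at 5.27 and the others between 0.84 and 1.71. The values are 7.67 against 1.87 to 3.59 in gCXC, and 10.87 against 2.07 to 7.91 in gXlnRC.

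The tags next to PDE_08094 in number were also examined. Genome positions are not used here, so tags next in number are taken as such and not as proven neighbours. Without the strand setting of the counting, reads from genes that overlap on opposite strands could not be told apart. Of the 10 tags within 5 on either side, 8 passed the filter on low values.

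Among these 8, 2 were called higher in gXlnRC against WT (19.1% of all tested genes) and 1 lower (35.5% of all tested genes), and their changes ran from -0.18 to 1.55 on the log2 scale. In gCXC 2 were higher (23.8%) and 3 lower (26.5%), with changes from -0.72 to 0.71. In gAraRC 2 were higher (19.1%) and 3 lower (57%), with changes from -1.41 to 1.61. The median change of the 8 was 0.10, 0.03 and -0.11 in gXlnRC, gCXC and gAraRC, against -0.10, 0.00 and -0.34 over all tested genes.

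The tag above, PDE_08095, had 4.16, 5.13 and 4.88 FPKM in WT, from 89 to 128 reads. It had 15.5, 16.5 and 15.2 FPKM in gXlnRC, 7.97, 7.97 and 9.02 in gCXC, and 3.52, 3.16 and 2.78 in gAraRC. The gXlnRC and gCXC libraries were all above WT and the gAraRC libraries all below. The log2 change against WT was 1.55 ± 0.10 in gXlnRC (SE, limma adjusted p = 6.29e-08), 0.71 ± 0.10 in gCXC (8.29e-05) and -0.46 ± 0.10 in gAraRC (0.000827). The last value did not pass the test with median-of-ratios scaling (-0.18, adjusted p = 0.109) or quantile normalization (-0.23, adjusted p = 0.0501).

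The tag below, PDE_08093, stayed between 44.4 and 54.0 FPKM in all 12 libraries. Its change passed the test in gXlnRC as deposited (-0.18 ± 0.06, limma adjusted p = 0.0178), but not under the 3 other scalings, where it ran from -0.10 to -0.07, nor without gXlnRC replicate 1 (-0.16) or replicate 3 (-0.17). In gAraRC it was 0.03 ± 0.06 as deposited (adjusted p = 0.689) and was called higher under those scalings, at 0.18 to 0.37. The change of PDE_08094 was larger than that of each of these 8 tags in every strain.

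**Figure D5:**
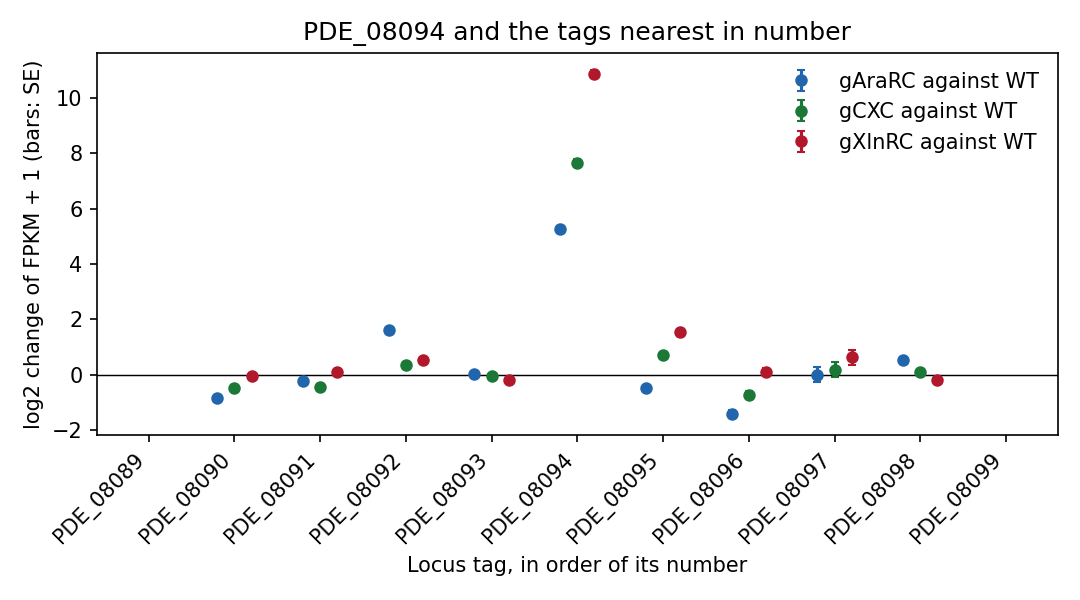
Log2 change of FPKM + 1 against WT (bars are SE) for PDE_08094 and the tags within 5 of it in number, by strain; 2 of the 10 tags did not pass the filter on low values and have no points. PDE_08094 stands at 5.27, 7.67 and 10.87, and the other tags between -1.41 and 1.61.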

How the data were processed

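The deposited table holds FPKM values computed by the authors, with 1 column for each of 12 libraries and 9979 genes. DESeq2, featureCounts 1.5.0-p1, HISAT2 2.0.0 and CASAVA 1.8 appear, without their roles, in the submitters' processing notes. The genome build, the annotation and the strand setting used for counting were not stated there. Per the labels' protocols, mRNA was captured and libraries were made with a stranded kit.

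The filter kept 9125 genes that reached 1 FPKM in 3 or more libraries. Their log2(FPKM + 1) values entered a single limma fit (version 3.58.1, R 4.3.3) with a mean per group, 8 residual degrees of freedom and a trended prior variance. Tests were two-sided, and p was adjusted by Benjamini-Hochberg over all genes of a comparison. A call is an adjusted p below 0.05. This scale understates changes of genes with low values. Read numbers and coding lengths in steps of 3 nt were recovered by requiring all values of a gene within 0.1 of whole reads, which all 9125 tested genes met by this search. The step of 3 is an assumption that sets the totals and the coding lengths but not the read numbers. The recovery and the limma fit were tested on simulated data. The simulated lengths were also in steps of 3 nt, so the simulation did not test that assumption. In the deposited data, the recovered reads of a library summed to between 99.993% and 99.997% of its recovered total. Python 3.11.15, numpy 2.4.6, pandas 2.3.3, scipy 1.17.1 and matplotlib 3.10.9 were used.

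The gene, the rule for other genes and the settings were chosen with earlier results of these data known. That rule took the 4 genes with the highest r, the 2 nearest by distance, and the 2 tags next in number. A list of other xylan genes could not be made, since 0 tags matched the reference gene table. Alternatives were other pseudocounts, filters and scalings, fits to 2 groups, library weights, a replicate block, leaving out each library, and limma voom on recovered reads.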

Additional observations from a re-analysis of the deposited data

How the results depend on the processing

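For the xylanase gene, all 138 log2 changes under alternatives (23 for each of 6 comparisons) kept their direction and their call, with a highest limma adjusted p of 1.22e-06. They ran from 9.95 to 11.2 for gXlnRC against WT, 6.75 to 8.004 for gCXC against WT and 4.37 to 5.59 for gAraRC against WT. The lowest value of each came from a pseudocount of 5, above the WT level of the gene, which shrinks the change by construction. Between strains they ran from 3.16 to 3.29, 2.07 to 2.48 and 5.37 to 5.69 (gXlnRC against gCXC, gCXC against gAraRC, gXlnRC against gAraRC). The fits that each left out a single library gave 10.8 to 11.02, 7.59 to 7.82 and 5.19 to 5.41 against WT. The number of genes that rose by more than it stayed at 0 in gXlnRC and ran from 1 to 3 in gCXC and from 3 to 8 in gAraRC. The exact permutation p kept its call under 5 alternatives added after the data were seen.

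The background counts of genes called higher stayed within 1.5 times in 135 of 138 cases. In gAraRC against WT they were 3109 with median-of-ratios scaling and 3035 with quantile normalization, and in gCXC against gAraRC 3166 with median-of-ratios scaling. These scalings align the libraries by construction. All 102 correlations stayed within 0.1 (0.89 to 0.99). Of 20 group means, 2 moved beyond 1 SD: to 7923 in gXlnRC with TPM scaling and 202 FPKM in gAraRC with median-of-ratios scaling. Of 483 changes of other named genes, 0 reversed, 7 lost and 3 gained a call, in PDE_08093 and PDE_08095.

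Whether the replicate numbers pair libraries was not stated and was not tested. Of 18 same-numbered pairs, 3 had deviations from group means correlated over 0.1 (-0.09 to 0.17). Differently numbered pairs ran from -0.19 to 0.21. Some of them were over 0.1 too, such as WT replicate 3 with gAraRC replicate 2 (0.21) and WT replicate 2 with gXlnRC replicate 1 (0.13). On average, 8 of 12 libraries correlated best with their own number, and the number to be found without pairing was not worked out. With a replicate block the xylanase gene's log2 changes were the same by construction (10.87 in gXlnRC, limma adjusted p = 4.91e-13). With that block, 2158, 1700 and 1741 genes were higher in gCXC, gXlnRC and gAraRC than in WT. The WT level rests on 54 to 107 reads per library and had a coefficient of variation of 23.7%, so the ratios against WT are imprecise. How much of that spread comes from the counting of reads was not tested.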
